A study of Mus musculus with 9 samples.

Results

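Antiviral restriction factors are host proteins that block a step of the viral life cycle inside the infected cell. The group described here was 10 mouse genes chosen by symbol, namely Rsad2, Mx1, Mx2, Bst2, Ifitm1, Ifitm2, Ifitm3, Samhd1, Apobec3 and Isg20, out of 31167 genes in the table, and all 10 were found in it. Most of these genes are induced by interferon. Interferon binds receptors that signal through Jak kinases to transcription factors, which bind a DNA element called ISRE in the promoters of their targets. The proteins act at different points: the Ifitm proteins at membrane fusion, the Mx proteins on incoming viral ribonucleoproteins, Samhd1, Rsad2 and Apobec3 on nucleotides or on the copying of viral genomes, Isg20 on viral RNA, and Bst2 at the release of new particles. Epithelial cells can express them without being immune cells.

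RNA sequencing was done on primary renal tubular epithelial cells of C57BL/6 mice in 3 groups of 3 libraries. The control group was named Sham, and the study describes it as untreated. The H/R group was kept in glucose-free medium at 1.0% oxygen for 6 h and then in complete medium for 18 h. The EGR1OV group received a plasmid that overexpressed Egr1, a zinc finger transcription factor of the immediate early response, from the CMV promoter, which drives expression in nearly any cell that takes the plasmid up. The comparisons asked which genes followed the injury model and which followed Egr1. The labels do not say that Sham or H/R received an empty vector, and they give the H/R treatment for the H/R group alone, so the effects of Egr1 protein and of plasmid DNA with its transfection cannot be told apart here. They also do not say whether the libraries of a group came from separate cultures or animals, so p-values measure only the spread between these libraries. These were bulk cultures, in which fewer cells of a type and less RNA per cell cannot be told apart.

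Levels are given in FPKM, fragments scaled to exon length and library size, as the authors deposited them. Reads recovered from the steps of the low values put the depth at 16183624 to 18383937 reads per library, and a gene with 3 reads or fewer is treated as at the floor. Egr1 was at 6.40 ± 0.443 FPKM in Sham (mean ± SD, n = 3 libraries, as throughout), 7.88 ± 0.599 in H/R and 42.6 ± 2.84 in EGR1OV. Of 16 tubule epithelium markers in the table, Slc34a1 (the proximal tubule phosphate transporter) and Umod (uromodulin of the thick ascending limb) had 3 reads or fewer in each library, and Cubn and Slc12a1, also markers of tubule segments, fell below the filter. The other 12 were tested, among them the general epithelial genes Krt8, Krt18 and Cdh1 and the renal epithelial factor Pax8. Lrp2 and Aqp1, markers of tubule segments, were also among those tested. Differences are in log2(FPKM + 1), on which the change of a gene near 0 comes out too small, with the standard error (SE) and the adjusted p of limma with Benjamini-Hochberg adjustment over the 13985 genes whose mean reached 0.5 FPKM. Calls required both an adjusted p below 0.05 and a difference of 1.3-fold or more (for H/R and Sham, 1.2-fold or more). The exact two-sided permutation test of 3 against 3 libraries cannot go below p = 0.1.

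In EGR1OV, 8 of the 10 restriction factors were called higher than in Sham, from 1.82-fold for Apobec3 to 340-fold (95% counting interval 203 to 623) for Mx2. None was called lower. Ifitm2 did not pass the test and Ifitm1, near the floor in each library, was not tested. In H/R against Sham none of the genes tested was called. Rsad2, Mx1 and Mx2 passed the filter on low values only through their EGR1OV libraries, so among the 9 genes tested these 3 had to differ. Of the other 6 tested, 5 were called higher in EGR1OV against Sham and 1 was not called. The share of the 13985 genes that was called in EGR1OV against Sham was 16.4%, with 9.87% higher and 6.51% lower.

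**Figure D1:**
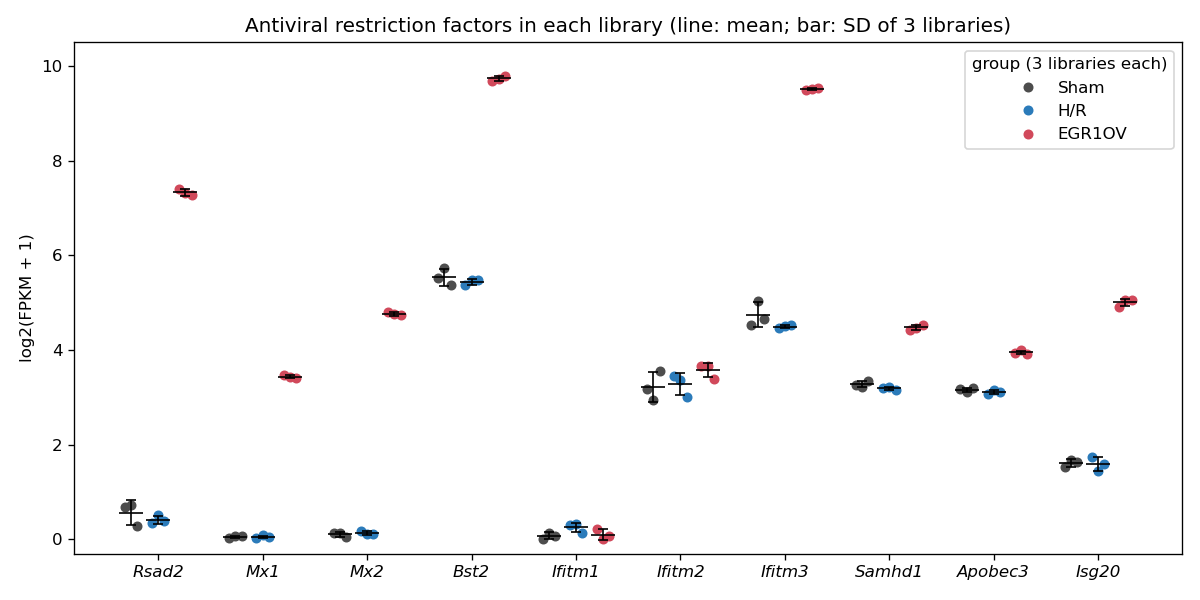
Each point is a library, with the gene on the x axis and log2(FPKM + 1) on the y axis, coloured by group; lines are means and bars the SD of 3 libraries. The EGR1OV points of 8 genes sit apart from and above those of Sham and H/R, while those of Ifitm1 and Ifitm2 overlap them.

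Promoter sequences from RefSeq (build GRCm38.p6, 250 bases before to 50 after the start of transcription) were at hand for 8 of the 10 genes, not for Mx1 and Mx2. The core of the ISRE was searched on both strands as GAAA, any 2 bases, and GAAA again. It was found in 5 of these 8 promoters, those of Rsad2, Bst2, Ifitm2, Ifitm3 and Apobec3. Of all 32851 promoters of the same length 3.44% held it, and of their 27025 gene symbols 3.99%. The stretches around the matches are shown for these 5 genes, which were picked for having a match. The promoters of Ifitm1, Samhd1 and Isg20 held none. They are printed 5′ to 3′ on the strand of the gene, with the matches in capitals. A match on the other strand reads TTTC, any 2 bases, TTTC.
Rsad2: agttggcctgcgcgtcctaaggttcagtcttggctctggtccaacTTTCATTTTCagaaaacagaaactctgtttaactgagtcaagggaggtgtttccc
Bst2: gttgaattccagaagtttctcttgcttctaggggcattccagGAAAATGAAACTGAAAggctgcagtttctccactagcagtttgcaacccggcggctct
Ifitm2: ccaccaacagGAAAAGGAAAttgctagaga
Ifitm3: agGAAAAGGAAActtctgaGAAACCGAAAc
Apobec3: catcagttagTTTCCCTTTCtctttgcgat

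The Rsad2 stretch is chr12:26456518-26456617 on the minus strand, and its match begins 120 bases before the start. The Bst2 stretch is chr8:71537545-71537644 on the minus strand, with overlapping matches 130 and 124 bases before the start. The Ifitm2 stretch is chr7:140955988-140956017 on the minus strand, with the match 46 bases before the start. The Ifitm3 stretch is chr7:141010715-141010744 on the minus strand and lies inside the first exon of GENCODE M21, which starts the gene further upstream. Its matches begin at bases 3 and 20 counted from the RefSeq start. For the other stretches, too, positions count from the RefSeq start. The Apobec3 stretch is chr15:79892258-79892287 on the plus strand, 140 bases before the RefSeq start at its match, and overlaps 2 exons of GENCODE M21, which starts the gene further upstream.

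The Ifitm2 and Ifitm3 promoters thus both hold the letters GAAAAGGAAA, and these genes differed widely in response, as given below. GAS, another element of interferon-induced promoters, was searched as TTCNNNGAA, where N is any base, which reads the same on both strands. It was found in 4 of 8 promoters (Bst2, Ifitm3, Samhd1 and Isg20), against 8.3% of all promoters and 9.55% of gene symbols. In Bst2 and Ifitm3 it overlaps an ISRE match. Samhd1 and Isg20 were the genes with a promoter in the table that were called and held GAS letters but no ISRE match. The letters GCGNGGGCG, a strict form of the Egr1 motif, were searched on both strands. They were in 0 of 8 windows, against 5.55% of all promoters and 6.27% of gene symbols. With shares this low, 0 of 8 windows cannot show that these promoters differ from others. Other forms of the motif were not searched. The Sox9 promoter site that the paper tested for Egr1 binding does not hold these letters. A match is a description of letters and not a bound site, and the absence of a match concerns only these windows.

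Bst2 (tetherin, ENSMUSG00000046718, chr8:71534255-71537456, minus strand) is a membrane protein that holds budding virus particles to the cell surface. It was the restriction factor with the highest level in each group. Its level was 44.9, 52.0 and 40.5 FPKM in the Sham libraries, 40.4, 43.6 and 43.4 in H/R, and 825, 847 and 888 in EGR1OV. The EGR1OV libraries were all far above the other 6, which overlapped. The ratio of means to Sham was 18.6, and the log2 difference was 4.20 (SE 0.0773, limma adjusted p = 2.23e-10). By mean level, Bst2 moved from rank 1007 of all genes in Sham to rank 20 in EGR1OV.

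Ifitm3 (ENSMUSG00000025492, chr7:141009586-141010770, minus strand) blocks fusion of enveloped viruses in late endosomes. It stood at 22.1, 31.8 and 24.3 FPKM in Sham, 20.96, 21.7 and 22.1 in H/R, and 719, 733 and 738 in EGR1OV. The coefficient of variation in EGR1OV was 1.35%, and no library of another group came near them. The ratio to Sham was 28.0 and the log2 difference 4.77 (SE 0.104, limma adjusted p = 6.32e-10). Its rank went from 1926 to 30.

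Ifitm2 (ENSMUSG00000060591, chr7:140954837-140955987, minus strand), a close relative from the same cluster that acts on endosomal entry, did not follow Ifitm3. Its level was 7.98, 6.66 and 10.8 FPKM in Sham, 9.91, 9.38 and 7.06 in H/R, and 11.7, 11.7 and 9.53 in EGR1OV. The EGR1OV range overlapped that of both other groups. The log2 difference to Sham was 0.35 (95% confidence interval -0.02 to 0.72, limma adjusted p = 0.112), an interval that lies below the difference of Ifitm3. The value depended on single Sham libraries: it was 0.52 without replicate 3, the highest for this gene (limma adjusted p = 0.019), and 0.21 without replicate 2, the lowest (limma adjusted p = 0.336). Of the 50-base words in Ifitm2 exons, 48.5% also occur in other genes, mostly in Gm45717, which overlaps it on the same strand, so reads of the pair may have been split. For Ifitm3 this share was 10%.

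Ifitm1 (ENSMUSG00000025491, chr7:140967221-140969825, plus strand), which acts at the cell surface, was barely detected. The Sham libraries held 0, 2 and 1 reads, the H/R libraries 4, 5 and 2, and the EGR1OV libraries 3, 0 and 1. The ratio of reads per depth was 1.35 for EGR1OV against Sham (counting interval 0.228 to 9.21). This interval leaves out a rise of the size of Ifitm3, whose ratio of reads per depth was 27.9. For H/R against Sham the ratio was 3.53 (0.933 to 19.7). Within these intervals a rise or a fall could not be told from no change. The other Ifitm genes in the table were 4. Ifitm5, Ifitm6 and Ifitm7 fell below the filter with at most 5 reads in an EGR1OV library, and Ifitm10 was tested with a log2 difference of -0.05 (limma adjusted p = 0.57). Of the 7 Ifitm genes in all, 3 were tested and Ifitm3 was the 1 called.

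Rsad2 (viperin, ENSMUSG00000020641, chr12:26442746-26456452, minus strand) makes a chain-terminating nucleotide from CTP. It was at 0.617, 0.662 and 0.210 FPKM in Sham, 0.271, 0.427 and 0.299 in H/R, and 169, 159 and 153 in EGR1OV. In recovered reads this was 109 over the Sham libraries against 34609 over EGR1OV, a ratio of 321 per depth (95% interval 266 to 392, counting error only). The log2 difference was 6.77 (SE 0.112, limma adjusted p = 1.13e-10), the largest of the 9 tested, and the rank went from 13934 to 226.

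Mx1 (ENSMUSG00000000386, chr16:97447035-97462907, minus strand) and Mx2 (ENSMUSG00000023341, chr16:97535308-97560900, plus strand) are dynamin-like GTPases encoded on the same chromosome. Many inbred strains, C57BL/6 among them, carry an Mx1 allele that yields no working protein, and the annotation lists Mx2 as a polymorphic pseudogene, so the values here are levels of RNA. Mx1 was at 0.0167, 0.0472 and 0.0498 FPKM in Sham, 0.0169, 0.0597 and 0.0309 in H/R, and 10.02, 9.80 and 9.57 in EGR1OV. The 3 Sham libraries held 7 reads in all, against 1778 in EGR1OV, a ratio of 257 per depth with a wide counting interval of 125 to 640. The log2 difference, 3.38 (SE 0.0567, limma adjusted p = 1.25e-10), is compressed by the added 1. Mx2 was at 0.101, 0.0952 and 0.0335 FPKM in Sham, 0.137, 0.0753 and 0.0780 in H/R, and 27.0, 26.0 and 25.6 in EGR1OV. Its reads went from 14 to 4709, a ratio of 340 (203 to 623), with a log2 difference of 4.66 (SE 0.0535, limma adjusted p = 1.86e-11). The pair share 159 of their 50-base words, 3.91% of those of Mx1 in all being shared with other genes and 4.38% of those of Mx2.

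Isg20 (ENSMUSG00000039236, chr7:78913424-78920396, plus strand) is an exonuclease that degrades RNA. It was at 1.86, 2.19 and 2.12 FPKM in Sham, 2.33, 1.73 and 2.001 in H/R, and 29.1, 32.2 and 32.2 in EGR1OV. The ratio to Sham was 15.2 and the log2 difference 3.40 (SE 0.0775, limma adjusted p = 9.05e-10). Sham and H/R overlapped, and its rank moved from 10338 to 1697.

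Samhd1 (ENSMUSG00000027639, chr2:157097533-157135265, minus strand) breaks down deoxynucleotides and so starves reverse transcription. Its level was 8.57, 8.36 and 9.19 FPKM in Sham, 8.16, 8.30 and 7.92 in H/R, and 20.5, 21.2 and 22.2 in EGR1OV. The ratio to Sham was 2.45 and the log2 difference 1.2 (SE 0.0429, limma adjusted p = 2.52e-08). Apobec3 (ENSMUSG00000009585, chr15:79891659-79915906, plus strand), a cytidine deaminase that mutates retroviral DNA, was at 8.05, 7.67 and 8.18 FPKM in Sham, 7.38, 7.85 and 7.67 in H/R, and 14.4, 14.9 and 14.1 in EGR1OV. Its ratio was 1.82 and its log2 difference 0.79 (SE 0.0381, limma adjusted p = 2.29e-07). These were the smallest changes among the genes called, and EGR1OV did not overlap Sham in either. Apobec3 overlaps D730005E14Rik on the same strand and Cbx7 on the opposite strand, and 6.53% of its 50-base words occur in other genes. Some reads may therefore have been assigned to the wrong gene, and how far this altered its level was not tested.

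**Figure D2:**
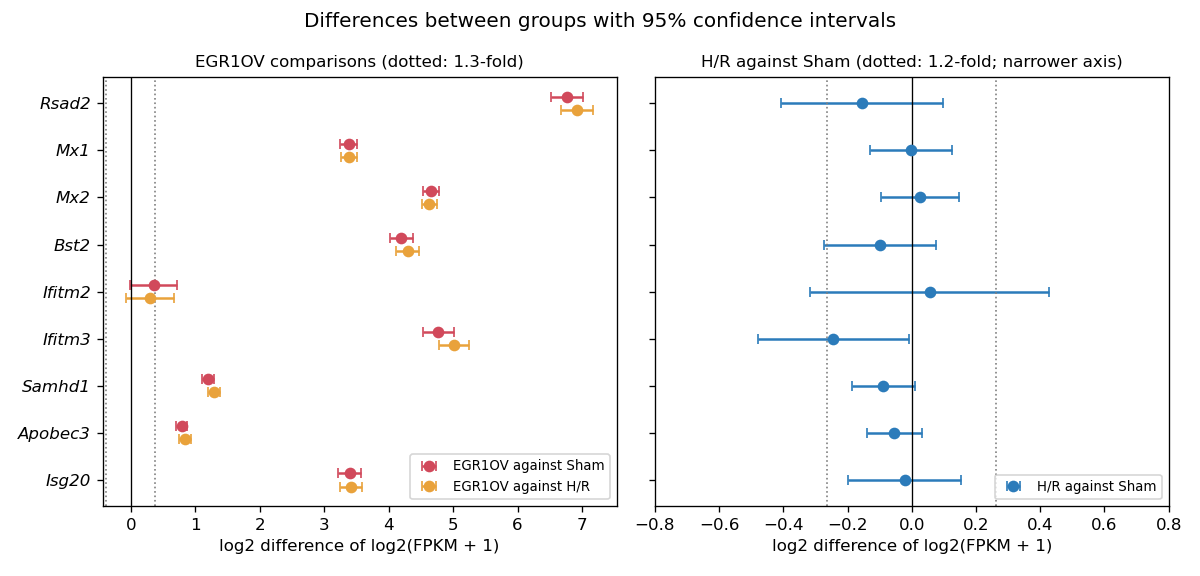
Points are log2 differences of log2(FPKM + 1) for the 9 restriction factors tested, with 95% confidence intervals from limma; the left panel shows EGR1OV against Sham and against H/R, and the right panel H/R against Sham on a narrower axis. Ifitm2 is the gene whose intervals reach 0 on the left, and on the right only the interval of Ifitm3 leaves out 0, between -0.48 and -0.01.

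The order of levels differed between the groups. In Sham it was Bst2, Ifitm3, Samhd1, Ifitm2, Apobec3, Isg20, Rsad2, Mx2, Ifitm1 and Mx1, in which Samhd1, Ifitm2 and Apobec3 overlapped their neighbours, as did Mx2, Ifitm1 and Mx1. In EGR1OV it was Bst2, Ifitm3, Rsad2, Isg20, Mx2, Samhd1, Apobec3, Ifitm2, Mx1 and Ifitm1, with Ifitm2 and Mx1 the sole neighbours to overlap. Rsad2 thus passed from the seventh place to the third. FPKM is scaled by exon length, so levels of different genes can be set side by side only roughly. The length counts all annotated exons, 9150 bases for Samhd1 and 9454 for Apobec3 against 903 for Bst2. In recovered reads, the Sham libraries held 4011 for Samhd1 and 3791 for Apobec3 against 2089 for Bst2.

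Summed over the 10 genes, the level was 94.2 to 109.6 FPKM in Sham, 89.8 to 93.3 in H/R and 1826 to 1893 in EGR1OV. That was 0.0318% to 0.0395% of all FPKM in Sham and 0.659% to 0.671% in EGR1OV. Bst2 and Ifitm3 together made up 71.8% of the sum in Sham and 85.2% in EGR1OV.

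For H/R against Sham the question was whether hypoxia with reoxygenation altered these genes. None of the 9 tested was called, against a share of 4.25% over the 13985 genes (1.60% higher, 2.65% lower). By unadjusted p, 1 passed 0.05 (Ifitm3), and limma voom on the recovered reads also called 0. The differences ran from -0.24 for Ifitm3 (95% interval -0.48 to -0.01, limma adjusted p = 0.163) to 0.06 for Ifitm2 (-0.32 to 0.43), and the direction of Mx1, Mx2, Ifitm2 and Isg20 turned when single libraries were left out or, for Mx1 and Isg20, under another scaling. Ifitm3 was low and even in H/R, and the Sham mean above it was raised by replicate 2 at 31.8 FPKM: the difference was -0.10 without that library and -0.35 without Sham replicate 1, and was called in neither case (limma adjusted p = 0.209 and 0.0575).

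Rsad2 differed by -0.15 (-0.41 to 0.10, limma adjusted p = 0.407). Sham replicate 3, at 0.210 FPKM, was the lowest of the 9 libraries, and without it the difference was -0.30 and was called (limma adjusted p = 0.0338). Without Sham replicate 2 it was -0.07, and without Sham replicate 1 it was -0.09. Samhd1 was the one gene whose H/R libraries lay wholly below Sham, with a log2 difference of -0.09 (exact permutation p = 0.1, limma adjusted p = 0.218). Of all genes tested, 21.8% lay wholly below Sham in H/R and 11.8% wholly above, and under median-ratio or quantile scaling no restriction factor did either. Intervals of this width exclude a change of the size seen in EGR1OV for the 8 genes called there, not a smaller one.

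EGR1OV was also set against H/R. The same 8 genes were called higher, against a share of 18.9% over the 13985 genes (11.9% higher, 6.94% lower). The log2 differences were 6.92 for Rsad2, 5.02 for Ifitm3, 4.63 for Mx2, 4.30 for Bst2, 3.42 for Isg20, 3.38 for Mx1, 1.29 for Samhd1 and 0.84 for Apobec3, with limma adjusted p of 1.35e-07 or less. Ifitm2 differed by 0.30 (-0.08 to 0.67, limma adjusted p = 0.165), and by 0.16 without H/R replicate 3. This comparison shares the EGR1OV libraries with the comparison to Sham, so it is no separate evidence. For non-overlap, the EGR1OV libraries of 8 genes lay wholly above Sham, as 31.0% of all genes tested did (24.6% lay wholly below). Those of 8 lay wholly above H/R, as 36.6% did (22.0% wholly below). In these counts and in the calls against H/R, Rsad2, Mx1 and Mx2 had to differ, having passed the filter only through EGR1OV.

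A list of 20 interferon ligands, receptors and signaling genes was examined as well. Whether any of them induced the restriction factors here was not tested. In EGR1OV against Sham, 16 of the 20 were tested, 12 were called higher, none lower and 4 were not called (Ifnar1, Il10rb, Jak1 and Irf3). The median log2 difference was 0.90, against 0.02 over all genes tested. Ifnb1, the type I interferon made early by infected or stimulated cells, was at 0 reads in each Sham and H/R library and at 24 to 38 reads in EGR1OV, at least 11.1-fold higher than a floor of 3 reads per library. It passed the filter only through EGR1OV and so had to differ; of the other 15 genes tested 11 were called higher. With Ifnb1 at its bound the list median was also 0.90. Irf7, the factor that amplifies interferon transcription, went from 0.823 ± 0.185 to 223 ± 5.07 FPKM (log2 difference 6.95, limma adjusted p = 1.38e-11). Usp18, which removes Isg15 and restrains the receptor, and Stat2 were the next largest, at 6.23 and 4.08. The type I receptor chains differed: Ifnar2 was called at 0.38 and Ifnar1 had -0.10 (limma adjusted p = 0.0313, short of the fold threshold). In H/R against Sham 0 of the 16 were called, and Irf7 differed by -0.15 (limma adjusted p = 0.234).

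A list of 33 other antiviral effectors moved in the same direction. Of 31 tested, 29 were called higher in EGR1OV against Sham, none lower, and Serinc3 and Serinc5, which impair retroviral particles, were not called. Of these 31, 6 (Oas1g, Oas2, Oas3, Zbp1, Cmpk2 and Dhx58) passed the filter only through EGR1OV and so had to differ, and of the other 25, 23 were called higher. The median log2 difference over the 31 was 4.26. Isg15, a ubiquitin-like modifier, rose from 4.86 ± 2.42 to 869 ± 29.5 FPKM. Ifit1 and Ifit3, which bind foreign RNA or support its binding, rose from 0.536 ± 0.188 to 213 ± 3.19 and from 4.30 ± 0.121 to 628 ± 8.19. In H/R against Sham, Gbp2 was called higher at 0.27 and Mov10, an RNA helicase, lower at -0.29, while 29 were not called. In promoters, 15 of 28 of these effectors held an ISRE match, 4 of 28 the GAS letters and 0 of 28 the Egr1 letters.

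**Figure D3:**
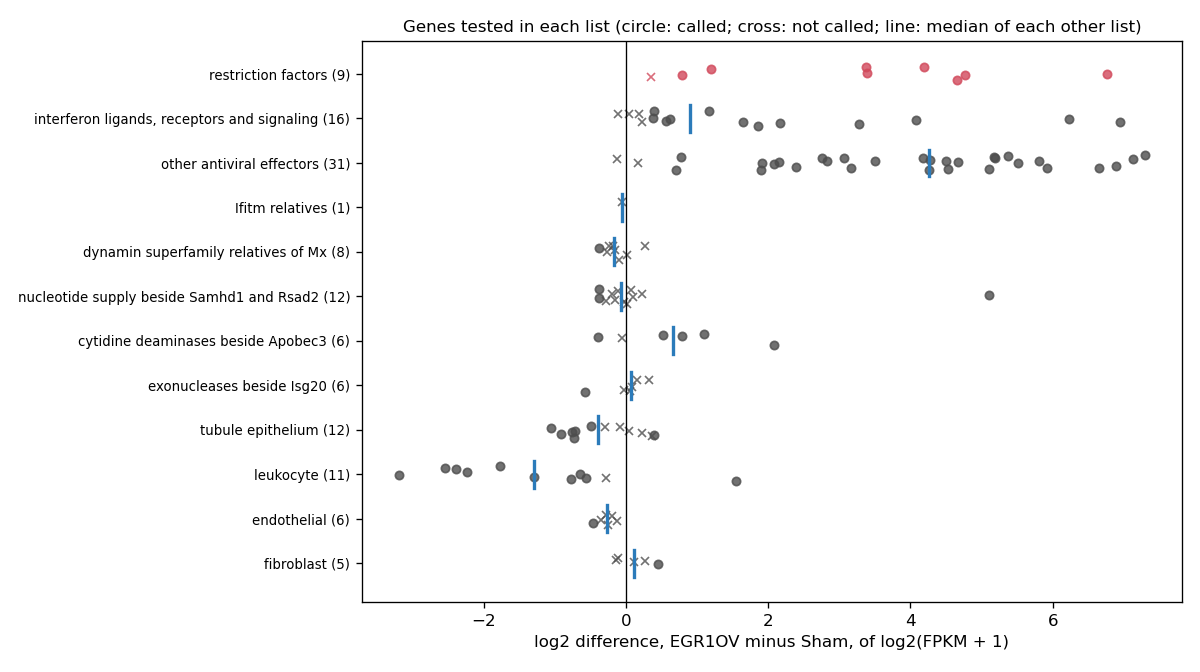
Each mark is a gene tested, placed by its log2 difference between EGR1OV and Sham on the x axis and by its list on the y axis, with the number tested in brackets; circles were called, crosses were not, and lines are medians of the lists other than the restriction factors. The restriction factors and the 31 other effectors reach beyond 6, and the relatives by protein family lie within 1 of 0 apart from Cmpk2, Adar and Apobec1. The row of 6 deaminases and its median include Apobec3, which is also plotted among the restriction factors.

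Genes related to the restriction factors by protein family or by substrate were counted as well; Cmpk2 and Adar among them are also in the list of other effectors, and no difference between lists was tested. Of 8 dynamin superfamily relatives of the Mx proteins, 7 were not called and Mfn2, which fuses mitochondria, was lower (log2 difference -0.38). Of 6 exonucleases related to Isg20 in function, 5 were not called and Rexo2 was lower (log2 difference -0.57). Of 12 genes of nucleotide supply, the substrates of Samhd1 and Rsad2, Cmpk2 was called higher, Cmpk1 and Dck lower, and 9 were not called. Cmpk2, a mitochondrial nucleotide kinase, went from 0.305 ± 0.214 to 43.5 ± 2.07 FPKM (log2 difference 5.10), and was tested only because its EGR1OV libraries were high. In H/R against Sham, 4 of these 12 were called lower, with Dut at -0.43, Rrm2 at -0.40, Dck at -0.40 and Tk1 at -0.34. Samhd1, the enzyme that breaks down their products, was not called there. Of 5 deaminases tested beside Apobec3, Adar was called higher at 2.08, Apobec1 at 1.10 and Cda at 0.53, Adarb1 was lower at -0.40, and Cdadc1 was not called.

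Neighbours on the chromosome were examined within 50 kb of each restriction factor. Of 30 such genes 16 were tested, 5 were called higher in EGR1OV and none lower. Cmpk2 lies 12752 bp from Rsad2, and its log2 difference of 5.10 stood well apart from the other 4, which were Mvb12a (0.62), Tmem221 (0.70) and Slc27a1 (0.58) near Bst2 and Pgghg (0.57) near Ifitm2. Tmprss2, 3784 bp from Mx2, and Aen, 2215 bp from Isg20, were not called. Cmpk2 and Tmem221 passed the filter only through EGR1OV and so had to differ, and of the other 14 genes 3 were called higher. In all, 11 of the 16 neighbours tested were not called.

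Across the 9 libraries, the genes whose pattern was most like the mean of the 9 restriction factors tested were Cp, Zc3h7b, Ptges2, Prdx1 and Tmem106a, with Pearson r of 0.997 to 0.998 among 7580 genes compared. Since the pattern is in essence a step between EGR1OV and the other 6 libraries, 868 genes had r over 0.95. Cp (ceruloplasmin), for example, went from 5.96 ± 0.220 FPKM in Sham to 29.8 ± 0.946 in EGR1OV.

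Markers of other cells moved as well. Of 11 leukocyte markers tested in EGR1OV against Sham, 9 were lower, with Lyz2, C1qa and C1qc down most, 1 (Cd14) was higher and 1 was not called. The list summed to 161 to 168 FPKM in Sham, 138 to 148 in H/R and 46.2 to 55.0 in EGR1OV, with Siglech at 3 reads or fewer in each library. The 8 restriction factors called rose while the summed leukocyte level fell. Of 12 tubule markers tested, 6 were lower and 1 higher, and the sum went from 2435 to 2477 FPKM in Sham to 1678 to 1790. Endothelial markers summed to 12.2 to 13.0 FPKM in Sham and 9.04 to 9.53 in EGR1OV, and fibroblast markers to 36.5 to 38.4 and 41.5 to 46.1, with Lum at 3 reads or fewer. The part of these cell types in the levels of the restriction factors was not tested.

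The Sham libraries were not alike in the interferon-induced genes. Of the 31 other effectors, 24 were highest in Sham replicate 2 and 19 lowest in replicate 3. Relative to the Sham mean, their median was 0.09 in replicate 2 and -0.06 in replicate 3 on the log2 scale. The restriction factors showed less order, with 4 of 9 highest in replicate 2 and 4 in replicate 3. Bst2, Ifitm3, Rsad2 and Isg20 were highest in replicate 2, while Ifitm2, Samhd1, Apobec3 and Mx1 were highest in replicate 3. Sham replicate 3 was also the Sham library with the most Gm23935, a gene whose level ran from 1494 to 21700 FPKM over the 9 libraries, and with it as a covariate 8 restriction factors were called in EGR1OV against Sham and 0 in H/R against Sham.

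**Figure D4:**
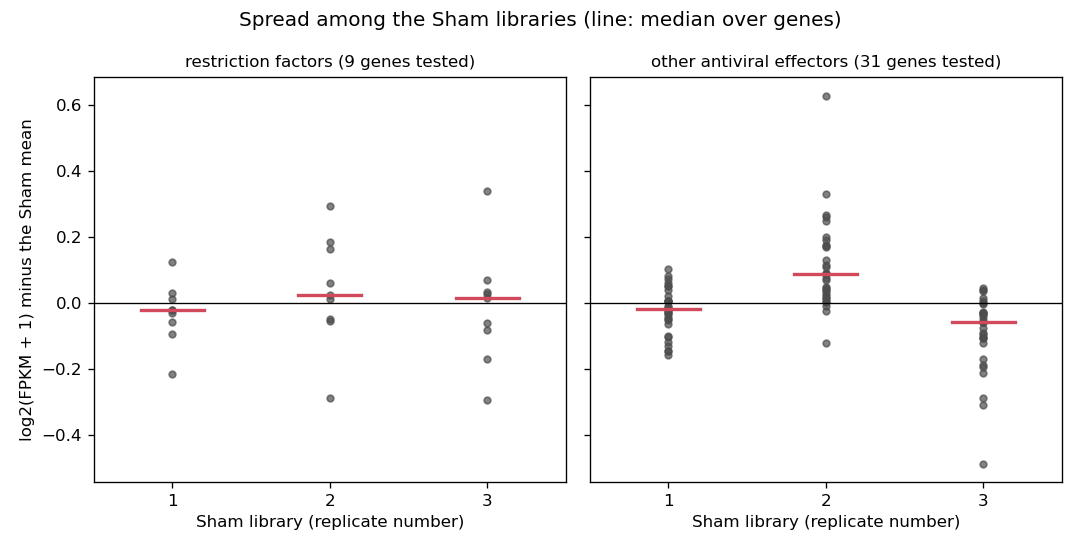
Each point is a gene tested, placed by its Sham library on the x axis and by its log2(FPKM + 1) minus the Sham mean on the y axis, for the restriction factors (left) and the other antiviral effectors (right); lines are medians. The 31 effectors sit mostly above 0 in replicate 2 and below 0 in replicate 3, with single deviations from -0.49 to 0.63.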

How the data were processed

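The authors deposited a table of FPKM per gene with a column per library and no pooled replicates. The submitters' processing notes name Bowtie2 2.2.3, HISAT2 2.1.0, TopHat2 and mm9 without roles, whereas the gene positions in the table are those of GRCm38: 94.6% equal GENCODE M21, all 10 restriction factors included, and coordinates are given on that build. Groups and replicate numbers came from the sample titles. The 10 genes and the gene lists were chosen with earlier results of these data known. In 26 rows a symbol turned into a date was restored from its identifier. Values of log2(FPKM + 1) with a mean of at least 0.5 FPKM were tested in 1 limma fit of all 9 libraries (lmFit, then eBayes with a trend, of limma 3.58.1 in R 4.3.3, two-sided, Benjamini-Hochberg adjustment). The fold thresholds against Sham follow the study. The procedure was tested on simulated data. Reads were recovered from FPKM with GENCODE M21 exon lengths: 94% of 162882 values were whole within 0.02 reads. For Mx1 a length of 3646 bases in place of 3785 made its low values whole. There were no molecular identifiers, so several reads may come from 1 molecule, and the read-ratio intervals and the floor reflect counting error alone. Alternatives were the pseudocount (0.1), the filter, scaling, a replicate block, no trend, voom on recovered reads, subsets of libraries, the fold threshold and, added after seeing the data, Gm23935 as a covariate and 2 scalings of the non-overlap counts. Named genes were the 10 restriction factors, Egr1, Ifnb1 and Irf7, up to 3 called genes per list with the largest change in EGR1OV against Sham, and the 5 genes most alike. Others were named after their values were seen: genes that were not called, that were called in small counts or in H/R, or that lie nearby. A gene not found in the table under its listed symbol (Shfl, Trex1, Aqp2 and Cd3e) was not analysed here. Some genes of the lists are not reported here by name.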

Additional observations from a re-analysis of the deposited data

How the results depend on the processing

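Over 19 alternative settings of the fit, which leave the fold threshold as it is, 495 of 510 differences of single restriction factors kept their direction and their side of the threshold, none lost a call, 3 gained one and 12, all in H/R against Sham and none called, turned direction. The number called was 7 to 9 in EGR1OV against Sham and 7 to 8 against H/R, where 7 came from a mean of at least 5 FPKM, at which Mx1 was not tested, and from a 2-fold threshold, at which Apobec3 lost its call. Ifitm2 was called against Sham by voom at 0.39 (adjusted p = 0.0487) and without Sham replicate 3. In H/R against Sham the number called was 0 to 1 when each library was left out in turn, the 1 being Rsad2 without Sham replicate 3. Leaving out each library moved Mx1 from -0.019 to 0.010, Mx2 from -0.0023 to 0.043, Ifitm2 from -0.087 to 0.23 and Isg20 from -0.095 to 0.049. Quantile normalization gave 0.061 for Mx1 and 0.0087 for Isg20, and median-ratio scaling 0.0049 for Isg20. Under both scalings 0 restriction factors lay wholly apart in H/R against Sham. The cause of these turns was not tested. On the voom scale, which adds no 1 FPKM, the differences to Sham were 8.47 for Rsad2, 7.82 for Mx1 and 8.39 for Mx2. Scaling moved the split of all called genes: 60.3% of those in EGR1OV against Sham were higher as deposited, 54.8% under median-ratio scaling and 45.9% under quantile normalization, with 37.7%, 58.0% and 56.5% in H/R against Sham and 63.2%, 51.1% and 42.5% in EGR1OV against H/R. Genes called in H/R against Sham numbered 594, and 995 by voom. Libraries with the same replicate number did not deviate together (r from -0.02 to 0.06 over 9 pairs), and a fit with the replicate block called 8, 0 and 8 restriction factors in EGR1OV against Sham, H/R against Sham and EGR1OV against H/R. Without replicates of known origin and at 7 to 14 Sham reads for Mx1 and Mx2, the size of their change is less certain than its direction.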
